A study of Mus musculus with 12 samples.

Results

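Collagens are secreted proteins in which alpha chains wind into rope-like trimers, and the combination of chains decides the structure that is built. Type IV chains form the sheet-like network of basement membranes, the layer on which kidney tubule cells rest, and type XV and XVIII chains are carried in the same layer. Fibrillar chains form the banded fibrils of connective tissue, and the remaining chains make beaded filaments, short networks, anchoring fibrils, transmembrane forms or coats on the surface of fibrils. The genes described are the 44 of 55491 in the tables whose symbol consists of Col, a number, the letter a and a number. They comprise 8 basement membrane chains (Col4a1 to Col4a6, Col15a1 and Col18a1), 11 fibrillar chains and 25 other chains.

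The chains were followed by bulk sequencing of polyA RNA in PT-22, a single mouse proximal tubule cell line that carries Pax2-/-, Pax8fl/fl and Rosa-CreERT2 in all groups, so the control cells also lack Pax2. CreERT2 is a recombinase that 4-hydroxytamoxifen activates, and here it is the tool for depleting PAX8, a transcription factor of kidney epithelium. Confluent cells in DMEM with 3% FBS were left untreated (control) or given 1 µM 4-hydroxytamoxifen for 2 days and collected 2, 6 or 12 days after treatment. Each of the 4 groups had 3 libraries, A, B and C. The labels do not say whether these were separate cultures, so every p-value below measures the spread between these libraries, which may be technical. No library came from vehicle-treated cells or from untreated cells of a later day. Effects of the drug, of Cre and of time in culture therefore cannot be told apart from those of PAX8 loss.

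Library totals ran from 4326667 counts (day 2 B) to 11654959 counts (day 2 C). Of 16 marker genes of the proximal tubule, 11 had counts, and Slc34a1, Slc5a2, Slc5a12, Slc13a1 and Kap had none in any library. Their summed level was 1281 to 1348 CPM (counts scaled to library size by TMM) in control libraries, and on days 2, 6 and 12 it was 1021 to 1091 CPM, 1253 to 1499 CPM and 752 to 954 CPM. Of the 7 tested, Anpep, Cdh6, Ggt1, Hnf4a and Lrp2 were lower than control at every day, Aqp1 was higher at every day (173 CPM in control, 1044 CPM at day 6), and Cubn passed no test. Of 14 markers of fibroblasts and smooth muscle, 12 had counts, while Pdgfra and Thy1 were at 0 in all libraries. These 12 summed to 58 to 63.9 CPM in control libraries, and on days 2, 6 and 12 to 99.1 to 106 CPM, 115 to 143 CPM and 402 to 474 CPM. The largest member was Cnn1 in control and at day 2 (38.3 and 67.2 CPM) and Acta2, smooth muscle actin, at days 6 and 12 (65.3 and 293 CPM, from 3.11 CPM in control). Of the 9 tested, 3, 7 and 7 were higher on days 2, 6 and 12. Dcn was lower at day 2, Cnn1 at day 6 and Cspg4 at days 6 and 12. The endothelial markers Cdh5 and Kdr had no counts, while Flt1 was higher at every day (26.6 CPM in control, 44.9 CPM at day 12). The leukocyte markers Cd3e and Itgam had no counts, Ptprc was at 1.2 CPM in control and 0 afterwards, and Cd68 was higher at day 12 (5.24 and 8.6 CPM, edgeR adjusted p = 0.00199).

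The genome pairs several of these genes at their starts. Col4a1 and Col4a2 are transcribed in opposite directions from starts 21 bases apart on chromosome 8, Col4a3 and Col4a4 from starts 72 bases apart on chromosome 1, and Col4a5 and Col4a6 from starts 1309 bases apart on chromosome X. Col6a1 and Col6a2 lie on the same strand of chromosome 10 with starts 102538 bases apart. The RefSeq promoter table (build GRCm38.p6, 250 bases before to 50 bases after a start) held 35 of the 44 chains in 38 windows. The windows of Col4a1 and Col4a2 are given because the genes start side by side, were both lower than control at every day, though to different extents, and have windows that share 78 bases. Those of Col4a4, which fell with its neighbour Col4a3, and of Col6a2 and Col8a1, which rose, are set beside them. Capitals mark matches, on either strand, to the CCAAT box (CCAAT) and the GC box (GGGCGG).
Col4a1: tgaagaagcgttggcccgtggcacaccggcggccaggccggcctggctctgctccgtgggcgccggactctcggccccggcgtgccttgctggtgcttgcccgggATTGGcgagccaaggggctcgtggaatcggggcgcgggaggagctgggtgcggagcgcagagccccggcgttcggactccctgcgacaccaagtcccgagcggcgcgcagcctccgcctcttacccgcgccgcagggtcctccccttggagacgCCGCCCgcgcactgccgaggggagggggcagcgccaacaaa
Col4a2: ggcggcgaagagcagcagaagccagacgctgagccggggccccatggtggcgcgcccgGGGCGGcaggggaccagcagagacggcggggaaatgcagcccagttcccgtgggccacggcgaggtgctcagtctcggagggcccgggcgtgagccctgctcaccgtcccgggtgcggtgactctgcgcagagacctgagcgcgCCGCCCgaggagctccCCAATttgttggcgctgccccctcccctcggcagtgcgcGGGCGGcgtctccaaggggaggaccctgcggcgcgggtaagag
Col4a4: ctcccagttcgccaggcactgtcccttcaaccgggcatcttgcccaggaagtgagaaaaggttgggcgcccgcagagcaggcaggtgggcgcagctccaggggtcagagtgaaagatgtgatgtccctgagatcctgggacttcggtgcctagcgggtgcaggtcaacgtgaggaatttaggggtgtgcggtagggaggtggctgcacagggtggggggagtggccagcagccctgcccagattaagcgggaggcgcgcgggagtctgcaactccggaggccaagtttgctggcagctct
Col6a2: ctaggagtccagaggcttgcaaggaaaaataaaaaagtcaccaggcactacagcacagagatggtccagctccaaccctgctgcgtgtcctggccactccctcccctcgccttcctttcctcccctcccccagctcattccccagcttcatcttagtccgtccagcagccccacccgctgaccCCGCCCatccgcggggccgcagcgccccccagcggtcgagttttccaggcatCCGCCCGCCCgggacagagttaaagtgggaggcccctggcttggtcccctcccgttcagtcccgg
Col8a1: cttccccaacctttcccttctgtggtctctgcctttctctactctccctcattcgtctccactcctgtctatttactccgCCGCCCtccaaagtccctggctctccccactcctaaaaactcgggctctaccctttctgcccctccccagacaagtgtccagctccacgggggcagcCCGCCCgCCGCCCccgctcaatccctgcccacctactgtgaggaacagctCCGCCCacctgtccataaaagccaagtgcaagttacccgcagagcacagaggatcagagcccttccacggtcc

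The windows lie at chr8:11312777-11313076 (minus strand, Col4a1), chr8:11312555-11312854 (plus strand, Col4a2), chr1:82586800-82587099 (minus strand, Col4a4), chr10:76623355-76623654 (minus strand, the first of 2 windows of Col6a2) and chr16:57754688-57754987 (minus strand, Col8a1). Their GC content was 74%, 73.7%, 63.3%, 64.3% and 60.3% in that order. The shared stretch holds a GC box that lies 9 to 14 bases after the Col4a1 start and 7 to 12 bases after the Col4a2 start in the other orientation. In the Col6a2 window the GC boxes from -15 to -10 and from -11 to -6 overlap. The Col4a4 window held none of the motifs searched. Among all 32851 promoters, 37.4% held CCAAT, 35.7% GGGCGG, 13.6% TATAAA and 7.81% TGANTCA. Of the 38 collagen windows, 13, 23, 5 and 1 held them. A match describes the letters of these windows and is no evidence that a factor binds there.

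Summed over all chains, collagen transcripts were lower in every treated group than in control, and basement membrane chains gave way to other chains in their make-up. No test was run on these sums and shares. On the TPM scale, which corrects for transcript length and allows levels of different genes to be added, the sum was 552, 555 and 610 in control libraries A, B and C, 403, 394 and 434 at day 2, 389, 365 and 363 at day 6, and 352, 410 and 397 at day 12. All treated libraries lay below all control libraries. Day 6 lay just below day 2, and day 12 overlapped both. Basement membrane chains held 85.5% ± 0.98 of the collagen TPM in control cells, then 73% ± 1.63, 54.7% ± 1.16 and 46.7% ± 1.03 on days 2, 6 and 12 (SD over 3 libraries). The share of other chains was 11.2% ± 0.82, 21.1% ± 1.11, 36.4% ± 1.15 and 45.8% ± 0.908 in the same order. Fibrillar chains held 3.25% ± 0.249, 5.86% ± 0.587, 8.9% ± 0.298 and 7.53% ± 0.392. For the basement membrane and other chains, no library of one group overlapped a library of another group in its share.

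**Figure D1:**
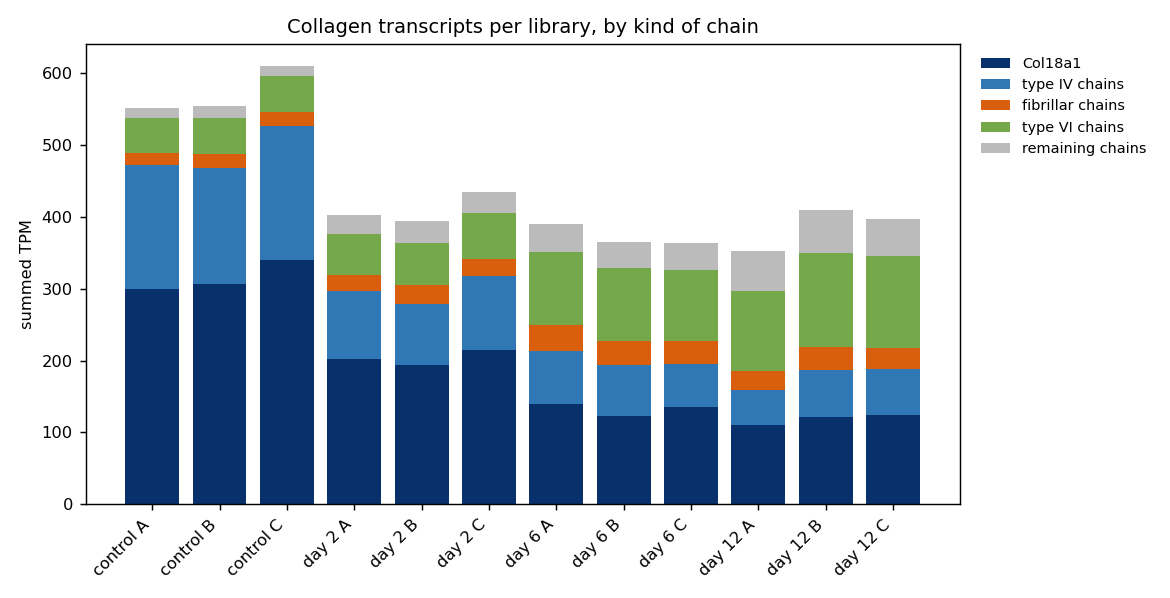
Summed TPM of collagen chains (y axis) in each of the 12 libraries (x axis), with bars stacked by kind of chain. Col18a1 and the type IV chains fill most of each control bar, and type VI chains take 27.2% of the sum at day 6 and 31.9% at day 12.

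Of the 44 chains, 24 had enough counts to be tested: all 8 basement membrane chains, 7 fibrillar and 9 other chains. Another 7 had no count in any library (Col3a1, Col11a1, Col6a5, Col9a1, Col13a1, Col19a1 and Col26a1). The last 13 had at most 14 counts in a library and were not tested. Of the tested chains, 6 (Col5a2, Col5a3, Col6a3, Col7a1, Col8a1 and Col14a1) were below the cutoff of 1.14 CPM in at least 1 group and entered through groups where they were higher, so counts over the tested chains are description. The tests below are edgeR quasi-likelihood tests, two-sided, with adjustment over all 13513 genes tested.

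At day 2, 9 collagen chains were higher and 7 lower than control, where 10.3% of all tested genes were higher and 10.9% lower. At day 6, 10 were higher and 9 lower, against 26.7% and 27.6% of all genes. At day 12, 11 were higher and 7 lower, against 26.1% and 26.6%. The directions followed the kind of chain. No basement membrane chain was higher at any day, and 6, 6 and 7 of the 8 were lower at days 2, 6 and 12. Among fibrillar chains 4, 4 and 5 of 7 were higher and 0, 1 and 0 lower. Among other chains 5, 6 and 6 of 9 were higher and 1, 2 and 0 lower. The median log2 change of the basement membrane chains was -0.68, -1.39 and -1.63, that of the fibrillar chains 0.57, 0.75 and 1.04, and that of the other chains 0.38, 1.43 and 1.76, while the median over all genes was -0.00, -0.01 and -0.00. Among the 18 chains above the cutoff in every group, 3, 2 and 3 of 5 fibrillar chains and 3, 4 and 4 of 5 other chains were higher. In that subset the median log2 change was 0.57, 0.39 and 0.62 for fibrillar chains and 0.38, 1.43 and 1.76 for other chains. Of the calls on all tested chains, 8 of 16, 14 of 19 and 15 of 18 held under every alternative processing that gave a value.

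**Figure D2:**
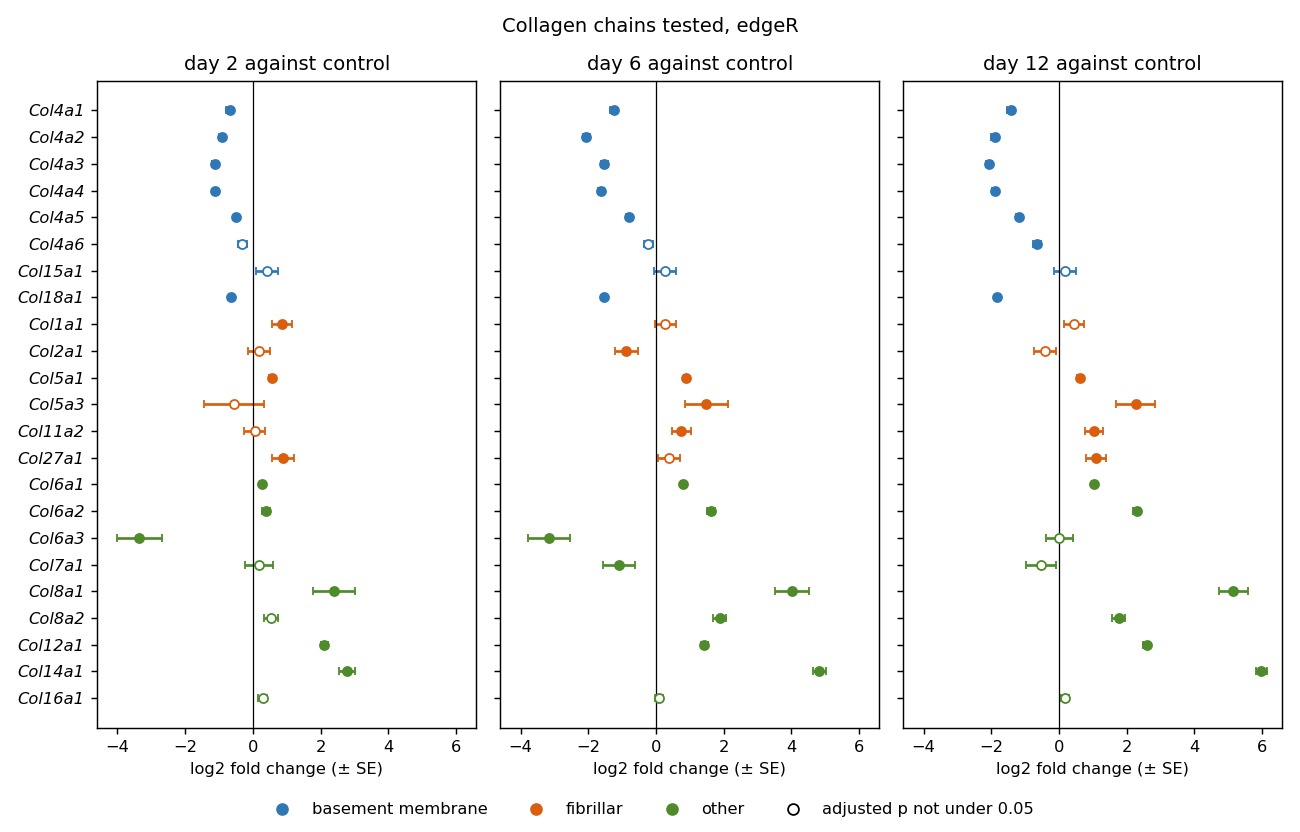
log2 fold change with its SE (x axis) for each tested chain except Col5a2, which had no count in control (y axis), at day 2, day 6 and day 12 against control. Filled points passed an adjusted p of 0.05, and filled blue points (basement membrane) all lie left of 0, for Col18a1 at -0.66, -1.52 and -1.83.

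Col18a1 encodes the type XVIII chain, from which the fragment endostatin is cut, and it was the most abundant collagen transcript in every group, at 316 ± 21.3 TPM in control and 118 ± 7.58 TPM at day 12. Its level was 950, 1008 and 1047 CPM in control A, B and C, 639, 625 and 637 CPM at day 2, 364, 332 and 354 CPM at day 6, and 266, 290 and 287 CPM at day 12. The groups formed a falling series without overlap. The fall against control was 1.58-fold, 2.86-fold and 3.56-fold (log2 -0.66 ± 0.05, -1.52 ± 0.05 and -1.83 ± 0.06 SE, edgeR adjusted p = 4.84e-12, 1.96e-22 and 1.11e-24). Col18a1 also fell from day 2 to day 6 and from day 6 to day 12 (edgeR adjusted p = 5.03e-15 and 5.56e-05), and the second of these calls was lost in all 3 limma fits to log2 TPM (log2 -0.16, adjusted p = 0.228 to 0.31).

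Col4a1 and Col4a2, the chains of the type IV trimer found in nearly all basement membranes, fell too. Col4a1 had 232, 256 and 255 CPM in control, 155, 137 and 164 CPM at day 2, 109, 113 and 90.3 CPM at day 6, and 76.7, 102 and 96.5 CPM at day 12. Control stood above every treated library, and days 6 and 12 overlapped. Its log2 change was -0.69 ± 0.10, -1.25 ± 0.10 and -1.43 ± 0.10 (SE, edgeR adjusted p = 7.12e-05, 3.28e-08 and 6.54e-09). Col4a2 had 218, 250 and 246 CPM in control, 125, 122 and 129 CPM at day 2, 54.3, 62.5 and 54.3 CPM at day 6, and 53.7, 77.2 and 60.6 CPM at day 12. It was lower than control by 1.89-fold, 4.16-fold and 3.72-fold (edgeR adjusted p = 4.56e-07, 2.74e-12 and 6.81e-12), and its days 6 and 12 overlapped. The TPM of Col4a1 over that of Col4a2 was 1.18 ± 0.158 in control cells, then 1.18 ± 0.102, 2 ± 0.523 and 1.57 ± 0.341 on days 2, 6 and 12 (SD over 3 libraries). Every day 6 library exceeded every control library in this ratio, for which no test was run. The genes share 22 exonic bases in opposite orientation, and the sources used here do not give whether counting used strand.

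Col4a3 and Col4a4 join Col4a5 in the trimer of mature glomerular and some tubular basement membranes. Col4a3 had 58.7, 51.6 and 56.8 CPM in control, 25.8, 25.7 and 26 CPM at day 2, 19.6, 20.9 and 17.5 CPM at day 6, and 13.4, 12.1 and 14.2 CPM at day 12. Col4a4 had 83.9, 77.8 and 78.8 CPM in control, 35.2, 40.9 and 36.6 CPM at day 2, 28.1, 25.4 and 24.8 CPM at day 6, and 18.9, 22.1 and 24 CPM at day 12. Both genes stepped down at each time without overlap between successive groups. Their calls for day 6 against day 2 were lost in all 3 limma fits to log2 TPM. Adjusted p there was 0.214 to 0.388 for Col4a3 and 0.0534 to 0.118 for Col4a4. Col4a3 was lower than control by 2.16-fold, 2.88-fold and 4.21-fold, and Col4a4 by 2.15-fold, 3.06-fold and 3.68-fold (edgeR adjusted p at most 6.49e-12 for both at every day). The TPM ratio of Col4a3 to Col4a4 was 0.838 ± 0.0527 in control and 0.821 ± 0.0272 at day 12 (SD, n = 3), a difference smaller than the spread. An RNA gene on the opposite strand, C430014B12Rik, shares 563 exonic bases with Col4a3 and had 0 to 5 counts per library.

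Col4a5 and Col4a6 form the remaining type IV pair, which also builds trimers without Col4a3 and Col4a4. Col4a5 had 86.3, 80.4 and 80.2 CPM in control, 57.3, 52.1 and 63.1 CPM at day 2, 48.8, 46.6 and 45.9 CPM at day 6, and 35.9, 35.9 and 37.2 CPM at day 12. Its fall of 1.41-fold, 1.74-fold and 2.26-fold passed the test at each day (edgeR adjusted p = 2.61e-06, 2.82e-11 and 2.62e-15). Col4a6 had 21.5, 18.1 and 17.7 CPM in control, 15.8, 16.4 and 14.7 CPM at day 2, 14, 17.8 and 17.2 CPM at day 6, and 11.2, 11.4 and 13.7 CPM at day 12. Only its day 12 difference passed the test (log2 -0.65 ± 0.13 SE, edgeR adjusted p = 5.96e-05), and the values at days 2 and 6 gave adjusted p = 0.0938 and 0.117. Col15a1, the type XV chain that links basement membranes to the tissue below, lay between 1.36 and 2.81 CPM in the 12 libraries and passed no test against control. Its TPM values varied more, from 0.81 to 0.95 in control and from 1.02 to 3.79 at day 12.

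The proximal tubule marker sum was below control at days 2 and 12 and overlapped it at day 6, with 5 of the 7 tested markers lower at each day. Aqp1, which was higher at every day, made up most of the day 6 sum (mean 1044 CPM, and 173 CPM in control). The part of cell identity in the falls of the basement membrane chains was not tested.

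**Figure D3:**
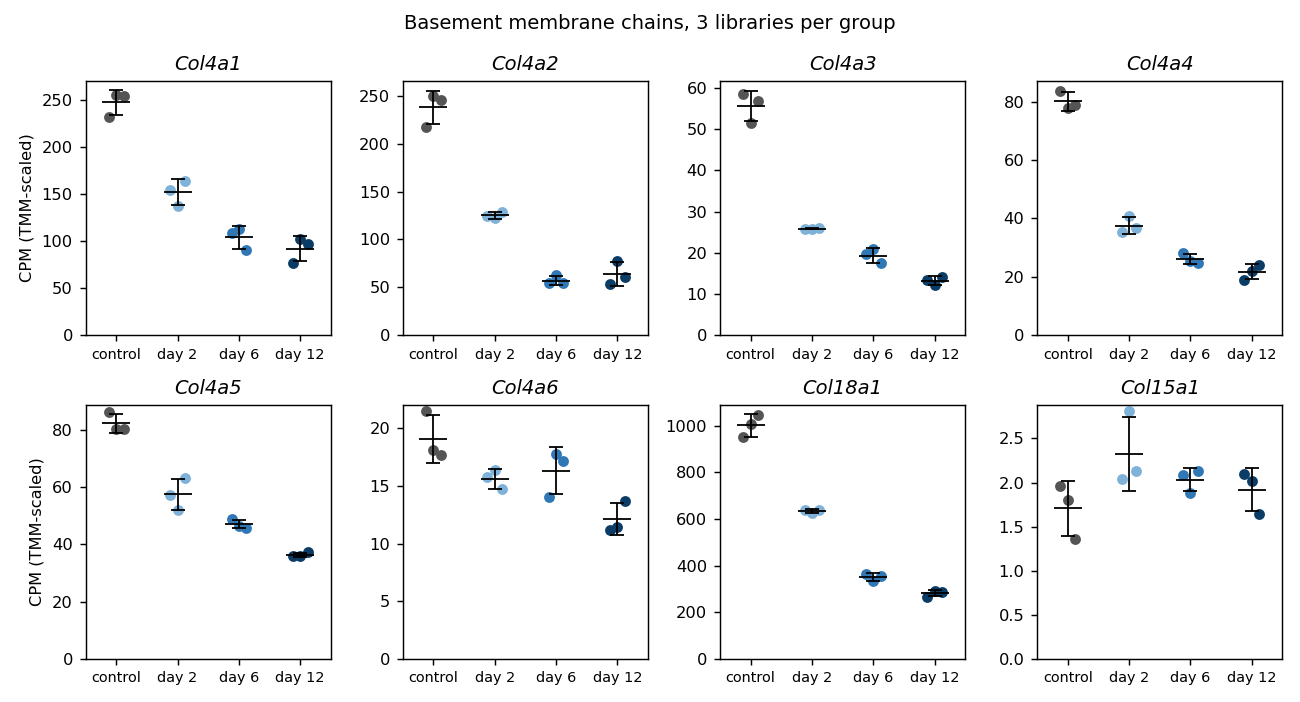
TMM-scaled CPM (y axis, from 0) of the 8 basement membrane chains in control and at day 2, day 6 and day 12 (x axis), with points for libraries and bars for mean and SD of 3. Col18a1 goes from a mean of 1002 CPM to 281 CPM and Col4a3 from 55.7 CPM to 13.2 CPM, while Col15a1 stays near 2 CPM.

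The fibrillar chains of interstitial connective tissue were scarce. Col3a1 had no count, and Col1a2, the partner chain of Col1a1 in type I collagen, had 0 or 1 count in each library. Col1a1 had 1.84, 2.35 and 2.4 CPM in control, 5.03, 4.91 and 2.73 CPM at day 2, 3.38, 2.76 and 1.73 CPM at day 6, and 3.15, 3.37 and 2.57 CPM at day 12. It was higher than control at day 2 (log2 0.86 ± 0.30 SE, edgeR adjusted p = 0.0358), and this call was lost in 9 of 20 alternatives, with adjusted p = 0.0632 to 0.215 without any 1 of the control libraries, day 2 A or day 2 B.

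Col5a1, the type V chain that joins and limits the width of type I fibrils, was the most abundant fibrillar transcript, at 14.1 TPM in control and 27 TPM at day 6. Its level was 52.5, 54.2 and 50.6 CPM in control, 69.8, 82.8 and 80.7 CPM at day 2, 101, 96.8 and 95.6 CPM at day 6, and 71.9, 87.7 and 81.3 CPM at day 12. All treated libraries stood above control, and day 6 stood above both other days. The rise was 1.48-fold, 1.87-fold and 1.53-fold (edgeR adjusted p = 7.58e-07, 2.75e-12 and 2.18e-08), and the fall from day 6 to day 12 passed the test as well (adjusted p = 0.00375). Col5a2, its partner chain, had 0 counts in each control library, 8, 2 and 14 counts at day 2, 17, 6 and 7 counts at day 6, and 11, 24 and 17 counts at day 12. Set against 3 counts over the control group, the observed level was 8.73-fold, 9.57-fold and 16.2-fold higher (edgeR adjusted p = 0.000152, 1.94e-05 and 4.02e-07). These ratios leave out the counting error of the treated groups.

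The remaining fibrillar chains had few counts. Col5a3, another type V chain, had 2, 3 and 3 counts in control, 0, 0 and 5 at day 2, 9, 5 and 10 at day 6, and 9, 14 and 20 at day 12. Its day 12 to control ratio was 5.03 (95% counting interval 2.34 to 12.4, edgeR adjusted p = 0.00115), and its day 6 call (adjusted p = 0.049) was lost in 11 of 17 alternatives. Col11a2, a type XI chain known from cartilage, had 1.96, 1.66 and 1.99 CPM in control, 2.04, 1.64 and 2.05 CPM at day 2, 3.88, 2.65 and 2.93 CPM at day 6, and 3.5, 3.93 and 4.21 CPM at day 12. It was higher at days 6 and 12 (log2 0.75 ± 0.28 and 1.04 ± 0.27 SE, edgeR adjusted p = 0.022 and 0.00143), the day 6 call being lost without control B or day 6 A (adjusted p = 0.0671 and 0.145). On the TPM scale its day 12 values, 2.8, 1.1 and 1.77, overlapped the control values of 1.33 to 1.59, and the day 12 call was lost in all 3 limma fits to log2 TPM (adjusted p = 0.633 to 0.72). Col27a1, a short fibrillar chain, had 1.61, 2.08 and 1.67 CPM in control, 3.4, 2.81 and 3.42 CPM at day 2, 2.09, 1.33 and 3.73 CPM at day 6, and 3.27, 4.26 and 3.9 CPM at day 12. Days 2 and 12 stood above control and day 6 overlapped it. The day 12 rise (log2 1.10 ± 0.30 SE, edgeR adjusted p = 0.0026) was lost in the same 3 limma fits (adjusted p = 0.0877 to 0.143). Its call at day 2 (adjusted p = 0.0458) was lost in 14 of 20 alternatives. Col2a1, the main cartilage chain, had 2.07, 3.04 and 1.88 CPM in control, 2.99, 1.87 and 2.73 CPM at day 2, 1.09, 1.11 and 1.6 CPM at day 6, and 1.52, 1.35 and 2.26 CPM at day 12. It was lower at day 6 (log2 -0.87 ± 0.35 SE, edgeR adjusted p = 0.0365), a call lost without control B, day 6 A or day 6 B (adjusted p = 0.101 to 0.168).

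Col14a1 and Col12a1, which encode fibril-associated chains that sit on the surface of fibrils, rose at every day. Col14a1 had 0.922, 0.83 and 1.05 CPM in control, 6.94, 5.61 and 6.75 CPM at day 2, 25.3, 29 and 27.6 CPM at day 6, and 57.6, 65 and 58.3 CPM at day 12. Each group lay above the one before. The rise was 6.89-fold, 28.5-fold and 63.1-fold (log2 2.78 ± 0.24, 4.83 ± 0.18 and 5.98 ± 0.16 SE, edgeR adjusted p = 1.53e-11, 3.2e-22 and 2.6e-26). On the TPM scale Col14a1 went from 0.343 to 20.2, beside 24.7 for Col4a1 at day 12. Col12a1 had 16.1, 14.3 and 15.4 CPM in control, 58.5, 71.3 and 68.6 CPM at day 2, 40.1, 46.2 and 36.9 CPM at day 6, and 89, 96.2 and 91.2 CPM at day 12. It was higher than control at each day, by 4.3-fold, 2.69-fold and 6.02-fold (edgeR adjusted p = 3.01e-18, 5.31e-14 and 3e-22). Unlike Col14a1, it fell from day 2 to day 6 (log2 -0.68 ± 0.09 SE, edgeR adjusted p = 5.73e-08) and rose again to day 12 (log2 1.16 ± 0.08 SE, adjusted p = 5.9e-13). Of the 9 fibroblast and smooth muscle markers tested, 3, 7 and 7 were higher and 1, 2 and 1 lower at the same days, and their part in these rises was not tested. In bulk RNA, more cells of a type and more RNA per cell cannot be told apart.

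Type VI chains build beaded filaments near basement membranes, and their genes did not move alike. Col6a1 had 113, 119 and 108 CPM in control, 127, 140 and 144 CPM at day 2, 198, 199 and 195 CPM at day 6, and 214, 243 and 239 CPM at day 12. Its successive groups did not overlap, and the rise was 1.21-fold, 1.74-fold and 2.05-fold (edgeR adjusted p = 0.00154, 3.42e-13 and 2.59e-16). Col6a2 had 14.1, 16.2 and 14.5 CPM in control, 22.6, 17.8 and 17.8 CPM at day 2, 50.7, 43.6 and 43.6 CPM at day 6, and 65.6, 76.3 and 76.9 CPM at day 12. It rose 3.1-fold by day 6 and 4.91-fold by day 12 (edgeR adjusted p = 2.28e-15 and 4.25e-20). Its smaller rise at day 2 (adjusted p = 0.0202) was lost without control A, control C or day 2 A (adjusted p = 0.0743 to 0.197). The TPM ratio of Col6a1 to Col6a2 was 7.5 ± 0.333 in control cells, then 7.16 ± 1.37, 4.23 ± 0.333 and 3.15 ± 0.0686 on days 2, 6 and 12 (SD over 3 libraries), and the day 6 and day 12 libraries lay below all control libraries. Col6a3, whose chain joins those of Col6a1 and Col6a2 in type VI collagen, had 11, 12 and 14 counts in control, 1, 1 and 1 at day 2, 0, 3 and 1 at day 6, and 11, 15 and 14 at day 12. The ratio to control was 0.0885 at day 2 (95% counting interval 0.0175 to 0.28) and 0.104 at day 6 (0.0268 to 0.288), with edgeR adjusted p = 0.000226 and 5.78e-05. At day 12 it did not differ from control past the threshold (log2 0.01 ± 0.40 SE, adjusted p = 0.98). On the TPM scale the day 6 values were 0, 0.91 and 0.07, which overlapped the control values of 0.21, 0.27 and 0.47.

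Type VIII chains form a short-chain network in endothelial and other basement layers. Col8a1 had 1, 1 and 2 counts in control, 8, 1 and 12 at day 2, 28, 27 and 19 at day 6, and 48, 57 and 61 at day 12. Its ratio to control was 5.73 at day 2 (95% counting interval 1.93 to 23), 17.7 at day 6 (6.63 to 66.7) and 38.8 at day 12 (14.9 to 144), with edgeR adjusted p = 0.00439, 1.2e-08 and 1.34e-12. The day 2 call was lost in all 3 limma fits to log2 TPM (adjusted p = 0.285 to 0.533). Col8a2 had 5.53, 7.61 and 3.76 CPM in control, 8.57, 6.55 and 8.28 CPM at day 2, 22.1, 16.6 and 22.5 CPM at day 6, and 19, 16.8 and 20.2 CPM at day 12. It was higher at days 6 and 12 (log2 1.88 ± 0.18 and 1.76 ± 0.18 SE, edgeR adjusted p = 1.03e-10 and 4.82e-10), with days 6 and 12 overlapping. The TPM of Col8a1 relative to Col8a2 was 0.0282 ± 0.0187 in control and 0.276 ± 0.0384 at day 12 (SD, n = 3). Col7a1, the anchoring fibril chain, had 8, 12 and 11 counts in control, 9, 8 and 15 at day 2, 7, 4 and 4 at day 6, and 7, 7 and 9 at day 12. It was lower at day 6 (edgeR adjusted p = 0.0454), a call lost in 17 of 19 alternatives. Col16a1, a fibril-associated chain, lay between 14.4 and 22.6 CPM in the 12 libraries and passed no test.

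**Figure D4:**
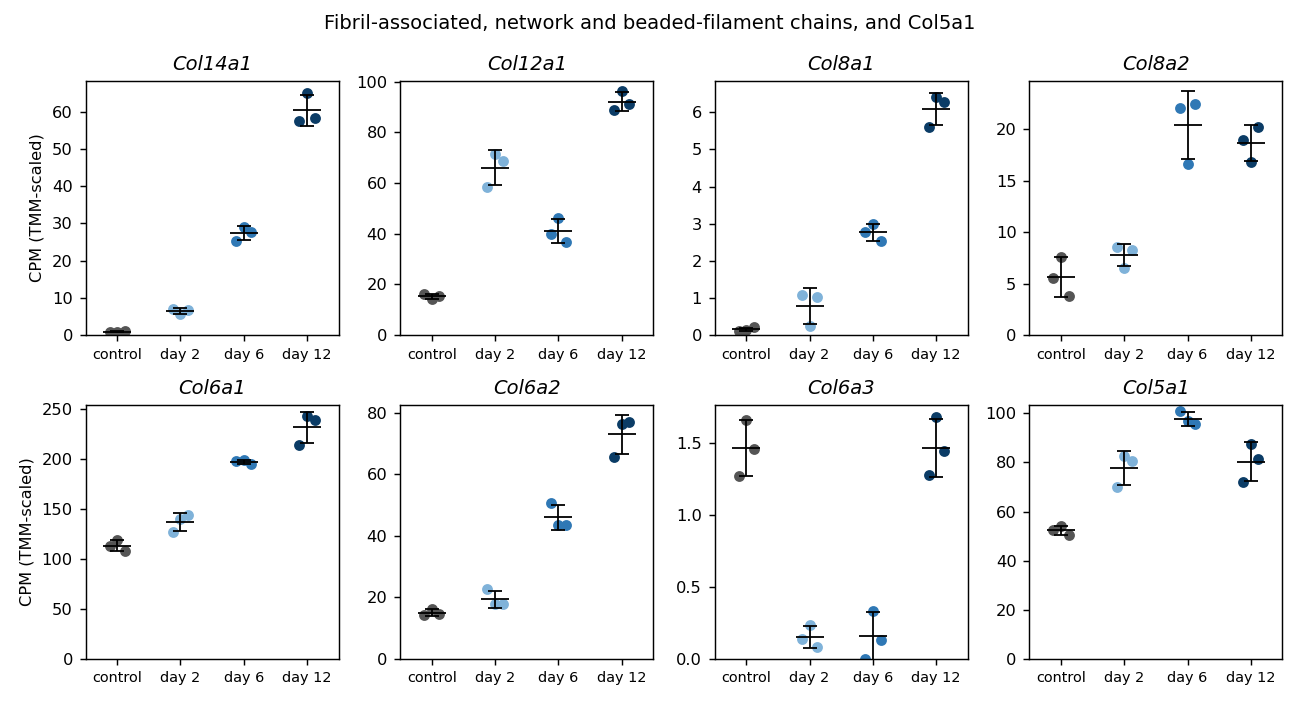
TMM-scaled CPM (y axis, from 0) of 7 other chains and Col5a1 in control and at day 2, day 6 and day 12 (x axis), with points for libraries and bars for mean and SD of 3; the lower SD bar of Col6a3 at day 6 is cut at 0. Col14a1 climbs at each time, Col12a1 dips at day 6 and Col6a3 is near 0 at days 2 and 6.

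Between treated days, 8 chains were higher and 9 lower at day 6 than at day 2, against 22.6% and 22.3% of all tested genes. Among the 18 chains above the cutoff in every group, 5 were higher and 8 lower. Only 8 of the 17 calls held under every alternative. Those of Col4a1, Col4a3, Col4a4 and Col4a5 were lost in all 3 limma fits to log2 TPM. Of 20 alternatives, Col11a2 lost its call in 13, Col7a1 in 9, Col2a1 in 7 and Col12a1 in 1. Col5a3 lost its call in 5 of 17. From day 6 to day 12, 6 were higher and 6 lower, against 11.0% of all genes in each direction. The 6 that rose in that interval were Col6a1, Col6a2, Col6a3, Col8a1, Col12a1 and Col14a1, all of them other chains. Of these, Col6a3, Col8a1 and Col14a1 were below the cutoff in at least 1 group. Among the 18 chains above it in every group, 3 of 5 other chains were higher in this interval, with a median log2 change of 0.23. The 6 that fell were Col4a3, Col4a4, Col4a5, Col4a6, Col18a1 and Col5a1. Of these 12 calls, 9 were lost in at least 1 alternative. Col4a4 (edgeR adjusted p = 0.0464) lost its call in 13 of 20 alternatives, Col4a6 (adjusted p = 0.0182) in 8 and Col6a1 (adjusted p = 0.00377) in 4, among them the fit without day 12 B (adjusted p = 0.0534). Col4a3, Col4a5, Col18a1 and Col5a1 lost theirs in all 3 limma fits to log2 TPM, Col8a1 in 2 of them and Col6a3 in 1. Col4a1 and Col4a2 gave edgeR adjusted p = 0.245 and 0.315 in this interval.

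Genes that act on collagen were taken from lists of enzymes, chaperones and receptors. Of 24 genes of chain folding and secretion, 23 were tested, and 4, 6 and 8 were higher and 4, 11 and 8 lower than control at days 2, 6 and 12. For comparison, the shares of all tested genes were 10.3%, 26.7% and 26.1% higher and 10.9%, 27.6% and 26.6% lower. The catalytic prolyl 4-hydroxylase subunits went in different directions, with P4ha1 and P4ha2 lower and P4ha3 higher than control. P4ha2 fell from 141 ± 5.93 CPM to 57.2 ± 4.06 CPM at day 6 and 87.8 ± 7.46 CPM at day 12 (SD, n = 3, edgeR adjusted p = 2.71e-17 and 1.38e-10). P4ha1 fell from 256 ± 9.64 CPM to 67.5 ± 4.68 CPM at day 6 and 103 ± 5.44 CPM at day 12, and P4ha3 rose from 5.4 ± 0.591 CPM to 43.5 ± 2.59 CPM and 43.9 ± 1.45 CPM (SD, n = 3, edgeR adjusted p at most 2.62e-19 for these 4 differences). Serpinh1, the collagen chaperone HSP47, was higher at day 2 (588 CPM in control and 686 CPM, edgeR adjusted p = 0.0141) and gave 552 and 619 CPM at days 6 and 12 (adjusted p = 0.237 and 0.356). Colgalt2, a galactosyltransferase for collagen, fell from 5.37 ± 0.391 CPM to 0.257 ± 0.127 CPM at day 12 (edgeR adjusted p = 4.42e-10). The more abundant Colgalt1, of the same kind, was higher than control at every day. It rose from 157 ± 7.37 CPM to 221 ± 8.12 CPM at day 12 (edgeR adjusted p = 3.85e-09).

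Of 14 genes of propeptide processing and cross-linking, 10 were tested, and 4, 4 and 6 were higher and 0, 4 and 3 lower at days 2, 6 and 12, against 10.3%, 26.7% and 26.1% and 10.9%, 27.6% and 26.6% of all genes. Adamts2, which removes the amino-terminal propeptide of fibrillar collagens, rose from 0.328 ± 0.286 CPM to 23.1 ± 0.764 CPM at day 12 (log2 5.98 ± 0.28 SE, edgeR adjusted p = 1.27e-18). Loxl2, a lysyl oxidase that cross-links collagen IV among others, was higher at day 2 (161 ± 5.6 CPM in control and 193 ± 18.3 CPM, edgeR adjusted p = 0.00405) and lower at day 12 (95 ± 4.75 CPM, adjusted p = 9.78e-12). Loxl1, Loxl3 and Loxl4 were instead higher at day 12, with edgeR adjusted p = 7.55e-06, 0.00233 and 0.000156. They went from 43.7 to 60.8 CPM, from 4.14 to 6.83 CPM and from 24.8 to 34 CPM. At day 6 Loxl1 was lower than control (36.4 CPM, adjusted p = 0.0124). Pxdn, the peroxidase that cross-links the collagen IV network, fell slightly, from 195 ± 6.56 CPM to 175 ± 8.59 CPM at day 12 (edgeR adjusted p = 0.0175). Of 11 receptor and uptake genes, 8 were tested, and 3, 5 and 5 were higher and 3, 3 and 3 lower, beside the same shares of all genes. The discoidin receptor Ddr1 fell from 330 ± 21.1 CPM to 151 ± 5.73 CPM, the integrin subunit Itga1 from 76.9 ± 2.43 CPM to 48.9 ± 4.08 CPM, and the collagen-binding adhesion receptor Adgrg1 from 513 ± 30.4 CPM to 192 ± 8.38 CPM at day 12 (edgeR adjusted p at most 7.9e-09). The integrin subunits Itga2 and Itga11 rose, from 43.7 ± 2.75 CPM to 112 ± 12.5 CPM and from 2.14 ± 0.385 CPM to 17.7 ± 1.9 CPM (edgeR adjusted p = 8.11e-17 and 1.51e-16).

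Chains below the filter were as follows. Col24a1, a fibrillar chain, had 0 to 6 counts per library, and Col9a3, a fibril-associated chain of cartilage, had 1 to 14. Col6a4, Col6a6, Col9a2, Col10a1, Col17a1, Col20a1, Col22a1, Col23a1, Col25a1 and Col28a1 had at most 9 counts in a library. Group means of Col9a3 ran from 0.443 TPM at day 6 to 1.06 TPM in control, and those of the other chains here were at or below 0.383 TPM.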

How the data were processed

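PolyA RNA was sequenced in 12 libraries of 4 groups, taken from the labels. The submitters' processing notes name STAR 2.7.8a, RSEM 1.3.3, cutadapt 2.3, FastQC 0.11.8 and build GRCm38; the strand setting and filters are not given in the sources used here. The authors deposited RSEM expected counts, already whole numbers, and a table of TPM values, both for 55491 genes (4 of them without an Ensembl ID). Copies of one library were looked for by chi-square tests between replicates, which gave 2.12 to 7.56 per degree of freedom.

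In R 4.3.3 with edgeR 4.0.16, filterByExpr kept 13513 genes, libraries were scaled by TMM (factors 0.99 to 1.01), and 1 robust quasi-likelihood model with group as its term was fitted to the expected counts (8 residual degrees of freedom; the common coefficient of biological variation was 0.0577). P-values were two-sided and adjusted by Benjamini-Hochberg over all genes, with 0.05 as the threshold. CPM use TMM-scaled totals. Ratios of few counts carry exact 95% intervals, which cover counting error only. The ratios of Col5a2, which had no count in control, carry no interval. Alternatives used DESeq2 1.42.0 and limma 3.58.1. Promoter sequences came from RefSeq (GRCm38.p6).

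Values in every library were given for chains that passed the filter and differed from control at any day, with Col4a1, Col4a2, Col1a1, Col1a2 and Col3a1 described in any case and the remaining chains given by counts and ranges. The members and gene lists were chosen with earlier results of these data known.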

Additional observations from a re-analysis of the deposited data

How the results depend on the processing

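Of 2356 values recomputed for single chains, 2136 kept their direction and side of the threshold, 173 lost the threshold and 9 gained it. The direction changed in 38, of which 0 passed the threshold before or after. The number of chains called was 16, 19 and 18 at days 2, 6 and 12 against control, 17 for day 6 against day 2 and 12 for day 12 against day 6. With limma on log2(TPM + 1) it was 10, 10 and 3 for day 2 against control, day 6 against day 2 and day 12 against day 6, with log2(TPM + 0.1) again 10, 10 and 3, and without the TPM filter 8, 10 and 4; this test ran on another unit, with 21 chains tested (37 without the filter). Leaving out each library in turn gave 13 to 17, 15 to 18, 18, 14 to 17 and 9 to 12 calls for the 5 comparisons. Calls that held under every alternative that gave a value numbered 8 of 16, 14 of 19, 15 of 18, 8 of 17 and 3 of 12. With the letter as a replicate block the counts were 15, 18, 18, 17 and 11. Deviations of same-letter libraries from their group means correlated from -0.135 to 0.445, above 0.1 in 6 of 18 pairs. Those of other-letter libraries correlated from -0.424 to 0.267, above 0.1 in 7 of 36 pairs. With 3 libraries per group, these values cannot decide whether libraries of the same letter share a culture or batch. Counted alone, type IV chains held 30.2%, 22.9%, 18.4% and 15.4% of the collagen TPM in control and on days 2, 6 and 12. Col15a1 and Col18a1 stayed in the total. Col1a1, Col2a1, Col5a3, Col7a1, Col11a2 and Col27a1 had at most 41 counts in any library, and the part of depth in their lost calls was not tested.

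The changes of direction fell on differences that were not past the threshold, and their cause was not tested. In the limma fits with log2(TPM + 1), log2(TPM + 0.1) and no TPM filter, the log2 change at day 2 against control was -0.24, -0.36 and -0.24 for Col2a1 and -0.47, -0.90 and -0.47 for Col11a2. For day 6 against day 2 it was 0.08, 0.05 and 0.08 for Col1a1, 0.25, 0.38 and 0.25 for Col15a1, and 0.04, 0.06 and 0.04 for Col27a1. For day 12 against day 6 it was -0.08, -0.05 and -0.08 for Col1a1, -0.40, -0.58 and -0.40 for Col11a2, and -0.28, -0.63 and -0.28 for Col7a1. Leaving out each library in turn, the log2 change against control ran from -0.01 to 0.12 for Col11a2 at day 2, from -0.01 to 0.20 for Col16a1 and from -0.04 to 0.67 for Col27a1 at day 6, and from -0.09 to 0.10 for Col6a3 at day 12, which was -0.00 with the replicate block. From day 2 to day 6 it ran from -0.35 to 0.42 for Col5a2 and from -1.0 to 0.83 for Col6a3. From day 6 to day 12 it ran from -0.03 to 0.40 for Col1a1, from -0.16 to 0.01 for Col15a1, from -0.01 to 0.26 for Col4a2 and from -0.02 to 0.20 for Col16a1.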
